A study of Arabidopsis thaliana with 42 samples.

Results

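S8H, F6'H1 and BGLU42 are Arabidopsis thaliana genes for enzymes that make or release the coumarins secreted by roots. They were chosen by locus (AT3G12900, AT3G13610 and AT5G36890), with earlier results of these data known. Each was read by 1 probe set, so that 3 of the 22746 probe sets tested are described. Coumarins of this kind are phenolic compounds that roots exude mainly when iron is hard to obtain, where they bind and reduce ferric iron outside the root. F6'H1 encodes feruloyl-CoA 6'-hydroxylase, which opens the branch from general phenylpropanoid metabolism to scopoletin. S8H encodes scopoletin 8-hydroxylase, which converts scopoletin to fraxetin, and BGLU42 encodes a beta-glucosidase that removes the sugar from stored coumarin glucosides before or during secretion.

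Roots and shoots came from bzip19 bzip23 plants, a T-DNA insertion double mutant in the Col-0 background, and from Col-0 wild type. bZIP19 and bZIP23 are related transcription factors of the zinc deficiency response. All plants were 4 weeks old, had grown hydroponically in half-strength Hoagland medium with 2 µM ZnSO4 for 3 weeks, and then received 0.05 µM (low), 2 µM (normal) or 25 µM (excess) ZnSO4 for 1 week. Each combination of tissue, genotype and supply had 4 arrays in roots and 3 in shoots (42 arrays, 12 groups), and each sample pooled 6 plants from 2 containers. Replicates are not said to come from separate cultures, so p-values measure the spread between these samples only.

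Values are RMA log2 levels of Affymetrix ATH1 probe sets. A log2 difference of 1 corresponds to doubling, and a probe set was called when its limma p-value, adjusted by Benjamini-Hochberg over all 22746 probe sets, was under 0.05. bZIP19 had mean log2 levels of 4.46 to 4.92 in mutant groups and 8.70 to 9.88 in wild type groups, 16.6-fold to 42.2-fold lower in the mutant. The platform table paired no probe set with bZIP23 alone, so its level was not read. The linear signals of 4 measured markers of photosynthetic tissue, of 12 listed, summed to 592 to 1776 in root arrays and 37715 to 44954 in shoot arrays, and those of the root hair markers EXPA7 and EXPA18, 2 of 9 listed root markers, to 279 to 848 in roots and 105 to 138 in shoots. One array stood apart by the 3' to 5' signal difference of its actin control probe sets, a measure of RNA integrity: wild type shoots at low zinc, replicate 1, at 6.12 on the log2 scale against 1.10 to 1.95 on the others. That array and replicate 2 of wild type roots at excess zinc had the lowest mean correlation with their own group, 0.980. Array names in the labels end in a code that looks like a date, here called the date code. What it records is not stated. It was shared by roots at normal and excess zinc, while roots at low zinc had another. Shoots at low and normal zinc shared a date code, and shoots at excess zinc had one of their own.

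In roots given excess zinc, all 3 genes rose in both genotypes, S8H by the greatest fold. S8H was 7.37-fold higher at excess than at normal zinc in mutant roots and 12.8-fold higher in wild type roots, BGLU42 was 2.57-fold and 3.36-fold higher, and F6'H1 was 2.08-fold and 2.32-fold higher. Of all probe sets tested, 3.45% rose in mutant roots and 5.96% in wild type roots. In tissue RNA, a change in the share of cells of a type and a change in RNA per cell cannot be told apart.

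S8H had log2 levels of 10.49, 10.92, 10.56 and 10.89 in mutant roots at excess zinc, against 7.54, 7.59, 8.04 and 8.17 at normal zinc. In wild type roots it had 12.02, 12.21, 11.41 and 10.51 at excess zinc, against 6.02, 8.44, 8.66 and 8.30 at normal zinc. The supplies did not overlap in either genotype, and replicate 1 of wild type roots at normal zinc lay below the other 3 by more than 2 log2 units. The log2 difference was 2.88 in the mutant (SE 0.51, limma adjusted p = 0.00129) and 3.68 in wild type (SE 0.51, adjusted p = 5.32e-05). Without that replicate 1, the wild type rise was 8.41-fold. Without replicate 2 of the excess zinc group it was 11.0-fold, and without replicate 4, the lowest of that group, it was 16.3-fold.

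F6'H1, which supplies the scopoletin that S8H uses, had narrow groups. Its log2 levels in mutant roots were 12.58, 12.71, 12.64 and 12.97 at excess zinc, against 11.63, 11.82, 11.56 and 11.65 at normal zinc. In wild type roots they were 13.28, 12.84, 13.17 and 12.86 at excess zinc, against 11.52, 11.84, 11.83 and 12.08 at normal zinc. Every array at excess zinc exceeded every array at normal zinc of its genotype. The log2 difference was 1.06 in the mutant (SE 0.12, limma adjusted p = 4.58e-06) and 1.22 in wild type (SE 0.12, adjusted p = 4.69e-07).

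BGLU42, the enzyme of the release step, had log2 levels of 9.24, 9.36, 9.20 and 9.99 in mutant roots at excess zinc, against 7.77, 8.04, 8.33 and 8.20 at normal zinc. In wild type roots it had 10.12, 10.13, 10.04 and 9.01 at excess zinc, against 7.96, 8.16, 8.23 and 7.97 at normal zinc. Replicate 4 of wild type roots at excess zinc was about 1 log2 unit below the other 3 and still above all arrays at normal zinc. The log2 difference was 1.36 in the mutant (SE 0.20, limma adjusted p = 0.000122) and 1.75 in wild type (SE 0.20, adjusted p = 3.49e-06).

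In these 6 root responses every array at excess zinc lay above every array at normal zinc of its genotype. That order alone gives p = 0.0286 in an exact two-sided permutation test of 4 arrays against 4, the smallest that design allows. The test therefore adds nothing to the separation of the ranges. The share of all probe sets with separate ranges was not counted. Roots at excess and normal zinc shared a date code. Of the 4 photosynthetic markers in roots, PSAN, a photosystem I subunit, fell by 1.16 in the mutant and by 1.297 in wild type on the log2 scale, and CHLM, an enzyme of chlorophyll synthesis, fell by 0.61 in wild type. The sum of the 4 markers ranged from 649 to 1335 at excess against 1115 to 1776 at normal zinc in mutant roots, and from 592 to 816 against 764 to 1455 in wild type roots. Neither EXPA7 nor EXPA18 was called. The part of these shifts in the coumarin gene responses was not tested.

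**Figure D1:**
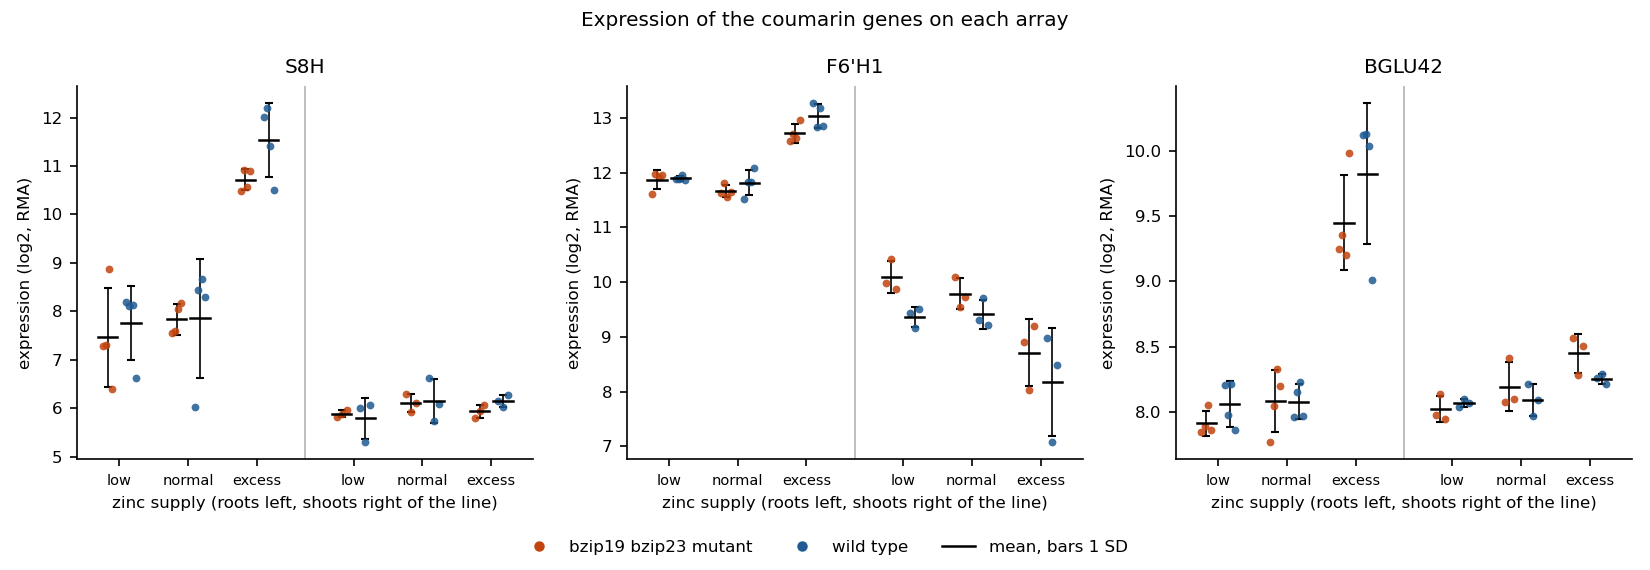
Log2 expression of S8H, F6'H1 and BGLU42 on each of the 42 arrays, by zinc supply (x axis), with roots left and shoots right of the grey line, the double mutant in orange left of wild type in blue, and the mean with 1 SD in black (4 arrays per root group, 3 per shoot group). The root groups at excess zinc lie above those at low and normal zinc in all 3 panels, and shoot F6'H1 is lowest at excess zinc, at 7.07 to 9.21.

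None of the genes passed the threshold at low zinc in roots. S8H had log2 levels of 7.28, 7.30, 8.87 and 6.39 in mutant roots and 8.19, 8.10, 8.12 and 6.62 in wild type roots at low zinc, which overlapped the levels at normal zinc in each genotype. F6'H1 ranged from 11.61 to 11.98 in mutant roots and from 11.86 to 11.96 in wild type roots at low zinc, and BGLU42 from 7.84 to 8.05 and from 7.86 to 8.21. All 6 low against normal differences in roots had ranges that overlapped. S8H differed by -0.38 in the mutant (95% interval -1.44 to 0.69) and by -0.10 in wild type (95% interval -1.16 to 0.97), which became -0.71 without replicate 1 of wild type roots at normal zinc. The intervals of F6'H1 reached from -0.04 to 0.44 in the mutant and from -0.16 to 0.32 in wild type. No member had an unadjusted p under 0.05, and the share of all probe sets called was 0.0484% in mutant roots and 0.132% in wild type roots. Low zinc and date code cannot be told apart in roots.

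In shoots the genes did not follow the root pattern. F6'H1 was lower at excess than at normal zinc on every array of both genotypes, S8H stayed between 5.30 and 6.63 on the log2 scale on all 18 shoot arrays, and BGLU42 stayed between 7.95 and 8.56. F6'H1 had log2 levels of 8.90, 8.03 and 9.21 in mutant shoots at excess zinc, against 10.10, 9.55 and 9.73 at normal zinc. In wild type shoots it had 8.98, 7.07 and 8.48 at excess zinc, against 9.30, 9.71 and 9.23 at normal zinc. The groups did not overlap, with wild type replicate 2 the lowest of all. How many of all probe sets had separate ranges between these supplies was not counted.

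The log2 difference of F6'H1 in shoots at excess zinc was -1.08 in the mutant (SE 0.37, limma adjusted p = 0.115) and -1.23 in wild type (SE 0.37, adjusted p = 0.180), and neither was called. Of all probe sets, 3.2% were called in mutant shoots and 0.62% in wild type shoots. With both genotypes averaged, a comparison chosen after the values were seen, the difference was -1.16 (SE 0.26, limma adjusted p = 0.0162, 2.23-fold lower) and 5.15% of probe sets were called. This call held when any 1 array was left out, at -0.88 to -1.36. The wild type response alone was called without replicate 1 of wild type shoots at excess zinc (-1.63, limma adjusted p = 0.0425). Without replicate 2 of that group it was -0.68 and not called. Over the alternatives, 35 to 369 of all probe sets were called in wild type shoots. Both genotypes were called when all 42 arrays were fitted together (limma adjusted p = 0.0134 and 0.00881). That fit called 1412 and 369 of all probe sets, against 729 and 141 in the shoot fit. It takes 1 spread per probe set from both tissues. F6'H1 had SDs of 0.04 to 0.23 in root groups, against 0.61 (mutant) and 0.99 (wild type) in shoots at excess zinc.

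Shoots at excess zinc had a date code of their own, and date code and excess zinc cannot be told apart there. The sum of the 4 photosynthetic markers was 38306 to 40179 at excess against 40538 to 43782 at normal zinc in mutant shoots, and 40182 to 41649 against 42039 to 44954 in wild type shoots. No single marker was called, and the part of this shift in the F6'H1 levels was not tested. The EXPA7 and EXPA18 sum was 105 to 121 against 122 to 126 in mutant shoots, without overlap, and 116 to 135 against 112 to 118 in wild type shoots, with overlap.

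S8H and BGLU42 did not pass the threshold in shoots at excess zinc. S8H differed by -0.18 in the mutant (95% interval -0.60 to 0.25) and by 0.00 in wild type (95% interval -0.43 to 0.42). BGLU42 differed by 0.25 in the mutant (95% interval 0.04 to 0.47, limma adjusted p = 0.173) and by 0.16 in wild type (95% interval -0.05 to 0.38). Averaged over both genotypes, the BGLU42 difference of 0.21 had an adjusted p of 0.110, which became 0.035 at a difference of 0.26 without replicate 2 of mutant shoots at normal zinc. At low zinc none of the 6 shoot differences was called or had an unadjusted p under 0.05, against 0.0659% of probe sets called in mutant and 0.703% in wild type shoots. Without the wild type array of high actin difference, the wild type low zinc differences were -0.47 for S8H, -0.08 for F6'H1 and -0.01 for BGLU42, against -0.36, -0.05 and -0.02 with it.

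**Figure D2:**
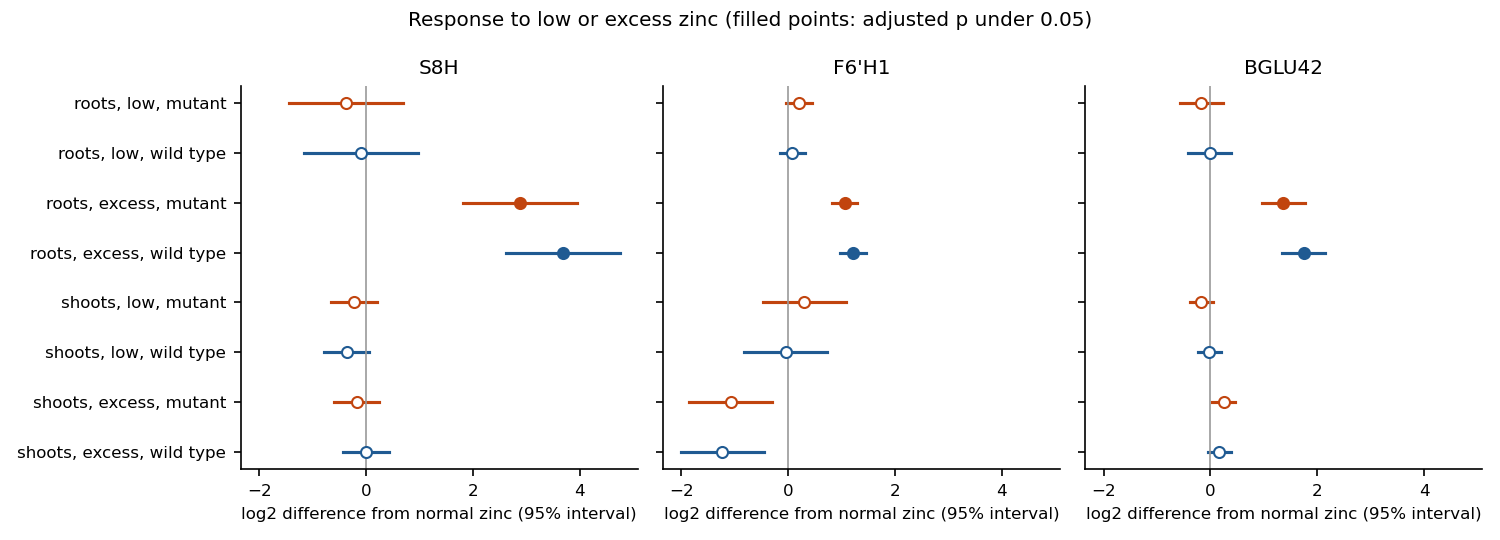
Log2 difference from normal zinc of each gene at low and excess zinc, with 95% intervals, in roots and shoots of the double mutant (orange) and wild type (blue). Filled points passed the adjusted p threshold: only the 6 root responses to excess zinc did, and the F6'H1 estimates in shoots at excess zinc lie below 0 at -1.08 and -1.23.

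All 3 genes responded to excess zinc differently in roots and shoots. The difference between the root and the shoot response, tested as a tissue by zinc interaction, was 3.06 for S8H, 2.14 for F6'H1 and 1.11 for BGLU42 in the mutant on the log2 scale (SE 0.65, 0.36 and 0.25, limma adjusted p = 0.00433, 0.000385 and 0.00722). In wild type it was 3.69, 2.45 and 1.58 (SE 0.65, 0.36 and 0.25, limma adjusted p = 0.000364, 2.71e-05 and 8.21e-05). Of all probe sets, 2.47% in the mutant and 3.45% in wild type had a higher response in roots by this test. The S8H value in wild type was 3.08 without replicate 1 of wild type roots at normal zinc. None of the 6 corresponding differences at low zinc was called or had an unadjusted p under 0.05, with 0.0747% of probe sets called in the mutant and 0.404% in wild type.

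Between tissues, F6'H1 and S8H were higher in roots at every supply in both genotypes, and BGLU42 only at excess zinc. Root over shoot ratios of F6'H1 at low, normal and excess zinc were 3.43-fold, 3.67-fold and 16.1-fold in the mutant and 5.79-fold, 5.30-fold and 29.0-fold in wild type. Those of S8H were 2.98-fold, 3.31-fold and 27.6-fold in the mutant and 3.91-fold, 3.26-fold and 41.95-fold in wild type. The deposited values carry no detection call, and S8H was not shown to be above background at its shoot levels of 5.30 to 6.63, so its ratios are lower bounds wherever the shoot level was background. These 12 differences were called, with limma adjusted p of 0.00334 or below. How many of all probe sets had separate ranges in roots and shoots was not counted. Of the 12, the ranges were separate in all but S8H in wild type at normal zinc. There, root replicate 1 lay at 6.02, among the shoot levels of 5.73, 6.09 and 6.63, and the ratio was 4.98-fold without it. Without the wild type shoot array of high actin difference, the ratios in wild type at low zinc were 4.22-fold for S8H and 5.94-fold for F6'H1.

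BGLU42 differed between roots and shoots by -0.11 at both low and normal zinc in the mutant, and by -0.01 and -0.02 in wild type. At excess zinc its root level was higher by 1.00 in the mutant (SE 0.18, limma adjusted p = 7.64e-06) and by 1.57 in wild type (SE 0.18, adjusted p = 9.96e-10), with no overlap. For comparison, the share of all probe sets that were higher in mutant roots was 35.1% at low, 36.2% at normal and 33.5% at excess zinc, and in wild type roots it was 34.6%, 35.6% and 34.6%. Roots and shoots never shared a date code, so tissue and date code cannot be told apart in these levels.

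The order of the 12 groups was alike at its top for the 3 genes. Wild type roots at excess zinc came first and mutant roots at excess zinc next, with overlapping ranges in each gene. For S8H, means of 10.72 ± 0.22 in mutant roots and 11.54 ± 0.76 in wild type roots at excess zinc (SD, n = 4 each) stood 2.86 above the next group. The 4 other root groups had means of 7.46 to 7.85 and did not differ beyond their spread. All but mutant roots at normal zinc (7.54 to 8.17) overlapped at their lower end with the shoots, which had means of 5.79 to 6.15. For F6'H1, the roots at excess zinc (12.72 ± 0.17 and 13.04 ± 0.22) were followed by the other roots (11.67 to 11.90) after a gap of 0.82, and by the shoots at low and normal zinc (9.37 to 10.09) after a gap of 1.57. Shoots at excess zinc came last, just overlapping them, at 8.71 ± 0.61 in the mutant and 8.18 ± 0.99 in wild type (SD, n = 3 each). For BGLU42, roots at excess zinc (9.45 ± 0.36 and 9.82 ± 0.54) stood 1.00 above 10 groups between 7.91 and 8.45 whose neighbours overlapped.

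Between mutant and wild type, 0 of 18 comparisons of the genes were called. In roots at excess zinc the differences, mutant minus wild type, were -0.82 for S8H (95% interval -1.89 to 0.24), -0.31 for F6'H1 (95% interval -0.55 to -0.07) and -0.38 for BGLU42 (95% interval -0.78 to 0.03), with limma adjusted p of 0.444, 0.173 and 0.336. F6'H1 there was the 1 comparison of the 18 with an unadjusted p under 0.05 (unadjusted p = 0.0128 in limma). BGLU42 was called without replicate 4 of wild type roots at excess zinc (-0.65, limma adjusted p = 0.0146). Leaving out that array also raised the number of all probe sets called from 336 to 1305. At low and normal zinc the root differences ran from -0.30 to 0.01, and the mutant and wild type arrays overlapped for every gene. Between the genotypes in roots, 0.0835% of probe sets were called at low, 0.0572% at normal and 1.48% at excess zinc.

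In shoots, the F6'H1 difference, mutant minus wild type, was 0.73 at low, 0.38 at normal and 0.53 at excess zinc. At low zinc its log2 levels were 9.98, 10.42 and 9.88 in the mutant, against 9.44, 9.15 and 9.50 in wild type. These groups did not overlap, but limma's adjusted p was 0.263, and the share of all probe sets with separate ranges was not counted. The adjusted p was 0.0460 when only arrays of that date code were fitted in limma. That fit leaves out shoots at excess zinc, where F6'H1 had SDs of 0.61 in the mutant and 0.99 in wild type. Without the wild type array of high actin difference, the low zinc difference was 0.76 (limma adjusted p = 0.346). Averaged over the 3 supplies, the shoot difference was 0.55 (95% interval 0.10 to 0.99, limma adjusted p = 0.166), with 4.3% of probe sets called, and the root differences were -0.38 for S8H, -0.17 for F6'H1 and -0.17 for BGLU42, none called, with 2.37% of probe sets called. By supply, 5.88% of probe sets were called in shoots at low, 0.022% at normal and 0.0308% at excess zinc.

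The genotypes did not differ detectably in their zinc response. In roots, the interaction of genotype with excess zinc was -0.80 for S8H (95% interval -2.31 to 0.70), -0.16 for F6'H1 (95% interval -0.50 to 0.18) and -0.38 for BGLU42 (95% interval -0.95 to 0.19). For S8H this corresponds to a rise in the mutant between 0.202 and 1.63 times that in wild type, and the value was -0.19 without replicate 1 of wild type roots at normal zinc. None of the 12 genotype by zinc interactions was called or had an unadjusted p under 0.05. Of all probe sets, 0.0176% were called for low and 0.0132% for excess zinc in roots. In shoots 0.0132% were called for low and 0% for excess zinc, where 1844 probe sets had an unadjusted p under 0.05.

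The 3 genes were set beside the other measured genes of coumarin metabolism. The platform table names no gene for 8730 probe sets, so a listed gene without a pairing was not read and may still have a probe set. Of 26 listed genes of the pathway, 7 were paired with a probe set of their own: the 3 members, HCT (an acyltransferase of general phenylpropanoid metabolism), COSY (coumarin synthase, which closes the coumarin ring), F6'H2 (the close relative of F6'H1) and BGLU23 (a root beta-glucosidase, also known as PYK10). At excess zinc in mutant roots the members were the 3 of 7 that rose, and in wild type roots HCT (0.43, SE 0.11, limma adjusted p = 0.0110) and COSY (0.42, SE 0.11, adjusted p = 0.0182) made it 5 of 7. Of all probe sets, 3.45% rose in mutant roots and 5.96% in wild type roots. The members and the list were chosen with earlier results of these data known. HCT and COSY differed by 0.18 and 0.24 in mutant roots, not called. F6'H2 differed by 0.26 in mutant and -0.01 in wild type roots and BGLU23 by 0.41 and 0.35, not called. The list's median difference, members included, was 0.41 in mutant and 0.43 in wild type roots, against -0.03 and 0.00 over all probe sets. The members had the 3 largest differences, so this median is the largest value among the other genes, BGLU23 in the mutant and HCT in wild type.

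At excess zinc in shoots none of the 7 was called. The list's median, members included, was -0.18 in the mutant and -0.15 in wild type, against -0.01 and 0.00 over all probe sets. F6'H2 differed there by -0.04 in the mutant and -0.15 in wild type, against -1.08 and -1.23 for F6'H1, and the difference between these relatives was not tested. All 7 genes, members included, were higher in roots than in shoots at excess zinc in both genotypes. Of all probe sets, 33.5% were higher in roots there in the mutant and 34.6% in wild type. BGLU23 had the greatest ratio, 88.9-fold in the mutant and 72.4-fold in wild type.

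Genes of the iron deficiency response were examined because coumarin secretion belongs to it. Of 24 listed genes, 6 were paired by the platform table with probe sets of their own (7 probe sets, BTSL1 having 2). The other listed genes were not read. All 7 probe sets rose in roots at excess zinc in both genotypes, where 3.45% of all probe sets rose in the mutant and 5.96% in wild type. Their median was 1.27 in the mutant and 1.505 in wild type, against -0.03 and 0.00 over all probe sets. They included MTP8, a metal transporter (1.96 and 1.83), and BTSL1 and BTSL2, ubiquitin ligases that limit the response (BTSL2 by 0.38 and 0.75). In shoots, 516 of 22746 probe sets rose in the mutant and 56 in wild type (3.2% and 0.62% were called in either direction). There, 3 of the 7 rose in both genotypes. IMA1, a small peptide that promotes iron uptake, rose by 2.74 in the mutant and 3.06 in wild type. PYE, a bHLH regulator, rose by 0.96 and 1.05, and BHLH101 by 1.14 and 1.299. These rose on the same shoot arrays on which F6'H1 was lower at excess zinc, and S8H and BGLU42 were not called there.

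**Figure D3:**
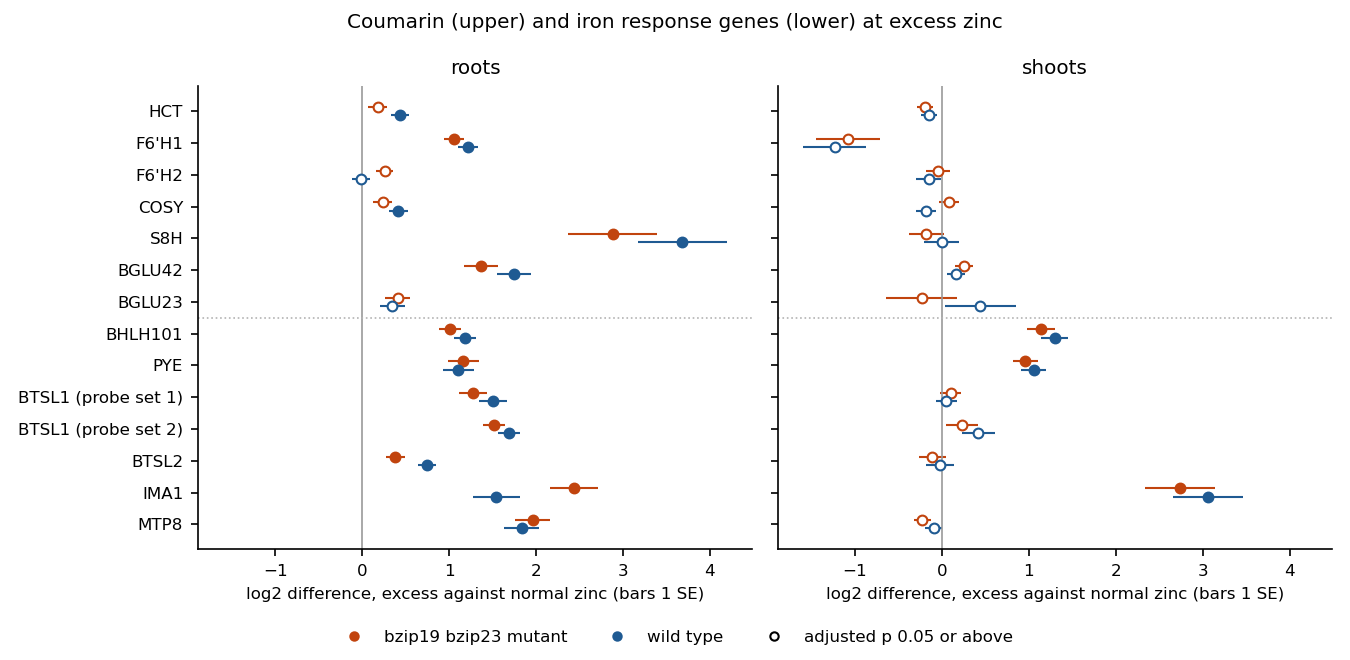
Log2 difference at excess against normal zinc for the measured coumarin genes (above the dotted line) and iron response genes (below it), in roots and shoots of the double mutant (orange) and wild type (blue), with bars of 1 SE and open points where the adjusted p was 0.05 or above. In roots the 3 coumarin genes and all 7 iron response probe sets rose in both genotypes, whereas in shoots IMA1, PYE and BHLH101 rose and F6'H1 lay below 0.

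**Figure D4:**
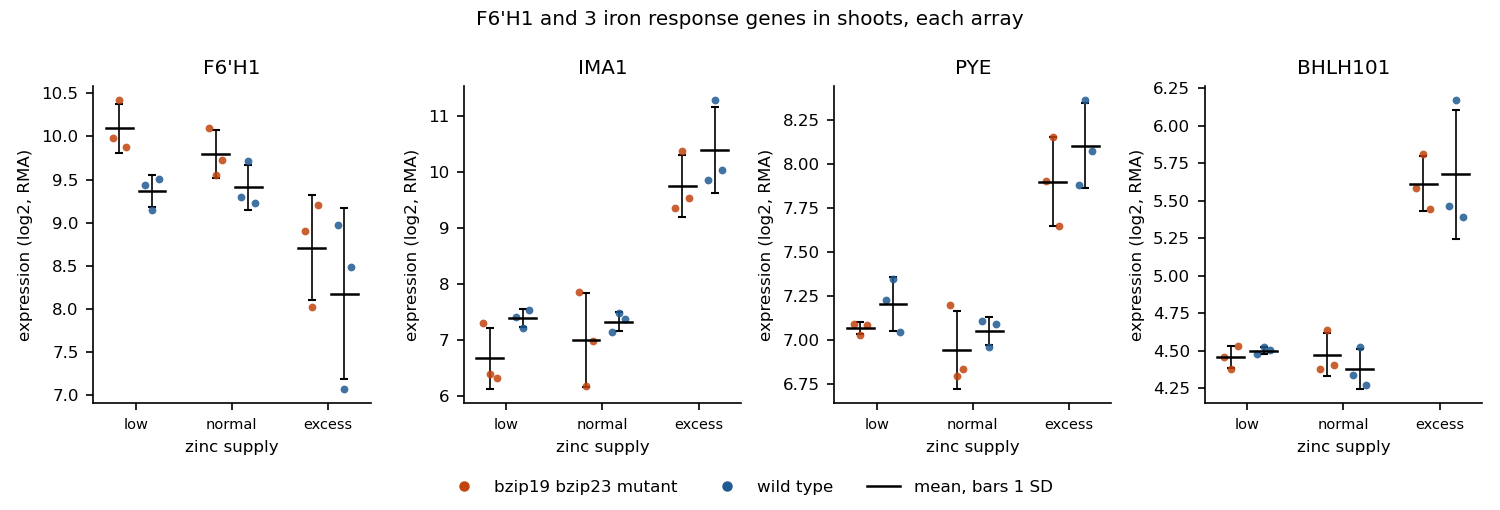
Log2 expression of F6'H1, IMA1, PYE and BHLH101 on each shoot array by zinc supply, the double mutant in orange left of wild type in blue, with the mean and 1 SD (n = 3). At excess zinc IMA1 lies between 9.35 and 11.27 and at low or normal zinc between 6.18 and 7.86, while F6'H1 lies between 7.07 and 9.21 at excess and between 9.15 and 10.42 at low or normal zinc.

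The 3 genes varied together over the 24 root arrays, with Pearson correlations of 0.940 for S8H with BGLU42, 0.931 for F6'H1 with BGLU42 and 0.907 for S8H with F6'H1. The arrays share their libraries among the genes and fall into excess zinc and the rest. After the group means were taken off, the correlations over the same 24 arrays were 0.554, 0.422 and 0.372. Over the 18 shoot arrays the correlations with group means left in were 0.089, -0.458 and -0.055. The spread within root groups was 0.22 to 1.23 (SD) for S8H, against 0.04 to 0.23 for F6'H1 and 0.09 to 0.54 for BGLU42.

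The patterns most like each gene, by Pearson correlation over the 24 root arrays among probe sets paired with 1 gene, came from a small set of loci. For S8H they were AT5G38820 (0.961), BTSL1 (AT1G74770, 0.952), AT3G61930 (0.946), UGT72E1 (0.946) and AT3G07720 (0.942). For F6'H1 they were AT5G35735 (0.961), MTP8 (AT3G58060, 0.955), AT3G61410 (0.954), UGT72E1 (0.950) and AT5G06490 (0.950). For BGLU42 they were AT5G38820 (0.974), MTP8 (0.966), BTSL1 (0.959), UGT72E1 (0.954) and scpl20 (0.947). UGT72E1, which encodes a glucosyltransferase acting on phenylpropanoid aldehydes, was among the 5 of each gene, with mean log2 levels of 11.57 at excess against 9.08 at normal zinc in mutant roots and 11.94 against 9.42 in wild type roots. Over the 18 shoot arrays, UGT72E1 had correlations of 0.096 with S8H, -0.519 with F6'H1 and 0.541 with BGLU42.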

How the data were processed

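Biotin-labelled RNA of each sample was measured on 1 ATH1 array. The authors deposited 1 log2 value per probe set, and per the submitters' processing notes they used RMA (background correction, normalisation between arrays and summary of probes) and limma, in versions that the sources used here do not state. Array medians were 6.87 to 6.99, and the number of arrays limits the precision. Of 22810 probe sets, 64 controls were left out, and dim probe sets were kept. 13513 (59.4%) were paired with 1 gene by the platform table, 503 with several and 8730 with none, and 13436 matched a gene in RefSeq's TAIR10.1 table, which gave names only. Loci were matched to symbols by hand.

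Two-sided limma tests (version 3.58.1, R 4.3.3, functions lmFit, contrasts.fit and eBayes) were fitted to the 24 root and the 18 shoot arrays separately, with 1 mean per group, and to all 42 for tissue comparisons. They were tested on simulated data. Exact permutation tests compared means over all 70 divisions of the arrays, in Python 3.11.15 with numpy 2.4.6. Genes and lists were chosen with earlier results of these data known. Named were the members, listed genes that the platform table paired with a probe set of their own, and the 5 genes most correlated with each member over root arrays. Alternatives were a filter on dim probe sets (log2 6), a replicate block, centred arrays, a trend and robust prior, actin as a covariate, other sets of arrays, and each array left out. Replicate numbers share no stated source: deviations of same-numbered arrays correlated at -0.452 to 0.496 (median 0.032) over 20 pairs of groups, and all exceeded 0.1 in 1 pair, mutant and wild type roots at normal zinc.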

Additional observations from a re-analysis of the deposited data

Results flagged for a closer look

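Within root groups of 4 arrays, 4 values stood far from the other 3, among 18 gene and group combinations tested, of which chance flags about 1 in 20. S8H was at 6.62 on replicate 4 of wild type roots at low zinc, against 8.10 to 8.19 on the others, and at 6.02 on replicate 1 of wild type roots at normal zinc, against 8.30 to 8.66. F6'H1 was at 11.61 on replicate 1 of mutant roots at low zinc, against 11.92 to 11.98. BGLU42 was at 9.01 on replicate 4 of wild type roots at excess zinc, against 10.04 to 10.13.

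The response to excess zinc differed between roots and shoots for all 3 genes by a tested interaction. The root response exceeded the shoot response by 3.06 for S8H, 2.14 for F6'H1 and 1.11 for BGLU42 in the mutant, and by 3.69, 2.45 and 1.58 in wild type, on the log2 scale. Normal and excess zinc shared a date code in roots and not in shoots, so for this difference date code and tissue cannot be told apart.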

How the results depend on the processing

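All 26 called differences of the 3 genes kept their direction and their call under every alternative run. With all 42 arrays in 1 fit, F6'H1 in shoots at excess zinc was called at -1.079 in the mutant and -1.235 in wild type, so that 1 gene was called in each. With arrays of 1 date code only, 1 gene, F6'H1 at 0.7277, was called between mutant and wild type shoots at low zinc. The replicate block changed no call. It turned the uncalled root against shoot difference of BGLU42 in wild type to 0.02332 at low and 0.01386 at normal zinc. Other uncalled BGLU42 values turned too: to -0.02175 between mutant and wild type roots at normal zinc with arrays centred, and with actin as covariate to 0.01496 in wild type roots and 0.008364 in wild type shoots at low zinc and to -0.02392 for their difference.

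With single arrays left out, 2 planned comparisons gained a call, with 0 to 1 genes called in each: BGLU42 between mutant and wild type roots at excess zinc (-0.6466 to -0.276) and F6'H1 in wild type shoots at excess zinc (-1.633 to -0.6829). So did BGLU42 in shoots at excess zinc over both genotypes (0.1784 to 0.2625). Leaving out replicate 1 of wild type roots at normal zinc moved by 1.53 times every S8H value that uses that group, other than the average over all supplies. These include the uncalled genotype by excess zinc interaction, which became -0.1905.

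Uncalled differences near 0 changed sign as single arrays were left out. For S8H the ranges at low against normal zinc were -0.7098 to 0.2816 in wild type roots, -0.7465 to 0.3342 for the genotype interaction in roots, -0.1072 to 0.348 for that in shoots, and -0.6199 to 0.2052 and -0.3463 to 0.6451 for the tissue interactions in mutant and wild type. At excess zinc they were -0.2128 to 0.2361 in wild type shoots, -0.195 to 0.02949 over both genotypes and -0.4132 to 0.03572 for the genotype interaction there. Between mutant and wild type they were -0.7658 to 0.05936 in roots at low and -0.6312 to 0.2503 at normal zinc, and in shoots -0.1494 to 0.2337 at low, -0.2512 to 0.1977 at normal and -0.1357 to 0.02636 over all supplies. For F6'H1 they were -0.01915 to 0.1682 in wild type roots and -0.1411 to 0.1017 in wild type shoots at low zinc, -0.2503 to 0.06372 and -0.02163 to 0.2211 for the tissue interactions in mutant and wild type, and -0.396 to 0.5544 for the genotype interaction in shoots at excess zinc. Between mutant and wild type, F6'H1 spanned -0.06575 to 0.05604 in roots at low and -0.0178 to 0.9326 in shoots at excess zinc. For BGLU42 they were -0.06364 to 0.05346 in wild type roots and -0.08428 to 0.03636 in wild type shoots at low zinc, -0.1044 to 0.08388 and -0.05085 to 0.07742 for the tissue interactions, -0.05479 to 0.0623 and -0.07544 to 0.0452 for roots against shoots in wild type at low and normal zinc, and -0.07435 to 0.1112 in roots and -0.006386 to 0.1617 in shoots between mutant and wild type at normal zinc.

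The count of all probe sets called moved by over 1.5 times in 20 of 28 comparisons. At excess zinc it was 1153 (600 to 1243 over the alternatives) in mutant roots, 2206 (674 to 2915) in wild type roots, 729 (124 to 1412) in mutant shoots, 141 (35 to 369) in wild type shoots and 336 (5 to 1305) between mutant and wild type roots. The tissue interactions there had 1092 (591 to 1322) in the mutant and 1048 (541 to 1276) in wild type, and mutant against wild type shoots at low zinc had 1337 (44 to 2352). In the other 12, roots had 11 (5 to 39) in the mutant and 30 (15 to 164) in wild type at low zinc, 13 (10 to 348) between the genotypes at normal zinc and 3 (2 to 31) for genotype by excess zinc. Shoots had 15 (0 to 185) in the mutant and 160 (31 to 435) in wild type at low zinc, 5 (2 to 37) and 7 (4 to 24) between the genotypes at normal and excess zinc, and 3 (1 to 4) and 0 (0 to 8) for genotype by low and excess zinc. The tissue interactions at low zinc had 17 (2 to 65) in the mutant and 92 (21 to 131) in wild type. The search for promoter motifs was not run. Signal close to background limits low levels, for which the deposited values give no detection call.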
